A study of Mus musculus with 8 samples.

Results

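Complement and receptor genes for which microglia are known were followed through the hippocampus of mouse pups. They are C1qa, C1qb, C1qc and C3 of the complement system, and Csf1r, Cx3cr1, P2ry12, Trem2, Tmem119 and Itgam, which encode proteins of the microglial surface. These 10 rows were taken from matrices of 32285 genes in single-nucleus multiome data, in which RNA (GEX) and open chromatin (ATAC) were read in the same nuclei. All pups were male wild-type C57BL/6J animals harvested at postnatal day 21. Their dams, 8 weeks old, ate folic acid (FA) at 2 mg/kg (MF, the control diet) or at 20 mg/kg (HF, the excess diet) for 2 weeks before mating and then through pregnancy and lactation. Each diet had 2 libraries, named MF1, MF2, HF1 and HF2 here, and how many pups stood behind a library was not given in the sources used here, so p-values measure only the spread between these libraries.

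Microglia are the resident macrophages of the brain. C1q is assembled from the products of C1qa, C1qb and C1qc, and it starts the classical complement cascade by binding to tagged surfaces, synapses among them in the developing brain. The cascade then cleaves C3, whose fragments are bound by the receptor that Itgam (CD11b) forms with Itgb2. Csf1r is the receptor on which microglial survival depends. Cx3cr1 binds the neuronal chemokine Cx3cl1, P2ry12 senses nucleotides and guides processes, Trem2 signals through Tyrobp, and Tmem119 is a surface protein used to tell microglia from other macrophages.

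After filtering, 11518 of 14297 nuclei (80.6%) were kept, 2249 to 3473 per library, with a median of 6655 unique molecular identifiers (UMIs, counted RNA molecules) per nucleus. Clusters were made with the 10 genes left out, so that none of the 10 helped to form a cluster. The doublet scores, by which some clusters were called mixed, were computed without leaving the 10 out. Other genes named below were not left out, and some of them, Selplg among them, lead or mark a class. A cluster was named from other markers, and 680 microglia-like (MG) nuclei were obtained, led by genes such as Ctss, Selplg and Inpp5d. All 12 microglial markers were seen in them, at a summed level of 14537.4 to 16206.4 CPM (counts scaled to the same total in every library and class) per library. Of 8 markers of brain border macrophages, Cd163, F13a1, Lyve1, Ms4a7 and Cbr2 were at 0 in MG nuclei, and the sum of the 8 lay between 192 and 261 CPM. All 9 lymphocyte markers were at 0. Markers of the other classes were also seen, those of excitatory neurons at 1037.9 to 1487.7 CPM in sum (5874.8 CPM in their own class) and those of oligodendrocytes at 387 to 823 CPM (31587.4 CPM in theirs), and their part in the results was not tested. MF1 stood apart in this class. It held 256 MG nuclei against 106 in MF2, 173 in HF1 and 145 in HF2, with a median of 2086 UMIs against 1530 to 1658, and haemoglobin genes summed to 2996.8 CPM in its MG nuclei against 585 to 1040.3 CPM in the others. Among 14186 different barcodes, 111 occurred in more than 1 library.

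The sequences just before the start sites are shown for 5 of the genes, because the ATAC data bear on these windows. They are the 250 bases before the start on the strand of the gene, written 5′ to 3′, from RefSeq (GRCm38.p6, the same build as the mm10 of the files). Capitals mark GAGGAA, the core recognised by the myeloid factor PU.1, or its reverse complement. The windows are C1qb at chr4:136886201-136886450 (minus strand), C1qc at chr4:136892915-136893164 (minus), Trem2 at chr17:48346151-48346400 (plus), Cx3cr1 at chr9:120068297-120068546 (minus) and P2ry12 at chr3:59262986-59263235 (minus).
C1qb: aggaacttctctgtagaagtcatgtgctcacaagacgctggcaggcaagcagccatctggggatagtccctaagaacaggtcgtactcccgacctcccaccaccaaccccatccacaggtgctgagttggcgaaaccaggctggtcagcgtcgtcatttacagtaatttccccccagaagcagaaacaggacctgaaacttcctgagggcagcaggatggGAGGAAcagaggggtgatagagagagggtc
C1qc: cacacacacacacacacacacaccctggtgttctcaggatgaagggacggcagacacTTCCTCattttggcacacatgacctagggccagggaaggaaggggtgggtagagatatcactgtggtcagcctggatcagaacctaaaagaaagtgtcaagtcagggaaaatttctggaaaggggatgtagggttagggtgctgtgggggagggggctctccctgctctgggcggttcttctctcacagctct
Trem2: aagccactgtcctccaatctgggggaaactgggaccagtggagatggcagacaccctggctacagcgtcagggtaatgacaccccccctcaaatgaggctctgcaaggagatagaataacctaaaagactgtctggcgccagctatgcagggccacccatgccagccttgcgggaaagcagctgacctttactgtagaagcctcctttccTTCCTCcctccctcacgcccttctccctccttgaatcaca
Cx3cr1: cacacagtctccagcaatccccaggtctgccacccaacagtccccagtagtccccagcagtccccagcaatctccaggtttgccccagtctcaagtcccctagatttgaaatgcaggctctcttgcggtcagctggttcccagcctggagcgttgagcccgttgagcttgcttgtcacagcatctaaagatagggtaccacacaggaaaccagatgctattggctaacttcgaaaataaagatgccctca
P2ry12: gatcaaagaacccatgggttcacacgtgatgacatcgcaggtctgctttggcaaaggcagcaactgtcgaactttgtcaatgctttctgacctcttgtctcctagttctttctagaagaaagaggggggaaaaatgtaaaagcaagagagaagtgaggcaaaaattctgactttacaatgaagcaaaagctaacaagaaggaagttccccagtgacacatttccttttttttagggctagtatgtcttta
The RefSeq promoter table held 7 of the 10 genes, and GAGGAA on either strand was found before the start of 4 of them (C1qb, C1qc, Trem2 and Itgam). It was found in 23.3% of all 32851 windows of this length. The composite motif of PU.1 and IRF factors was in none of the 7 and in 2.3% of all windows. A loose pattern for MEF2, with any base allowed in its middle, was likewise sought on both strands. This pattern was in the Cx3cr1 window alone among the 7 and in 3.2% of all windows. The match in Cx3cr1 had a G among the middle bases and is not shown to be a MEF2 site. A match is only a match of letters.

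The subunits of C1q were among the members with the highest levels in MG nuclei. C1qa (chr4:136895917-136898803, minus strand) stood at 3861.1, 2786.7, 3475.4 and 2540.5 CPM in MF1, MF2, HF1 and HF2. C1qb (chr4:136880129-136886187) stood at 3367.7, 2220.8, 2753.6 and 1970.7 CPM. C1qc (chr4:136889804-136893065) stood at 2914.6, 2053.7, 2490.3 and 1761.9 CPM. The 3 genes lie side by side on chromosome 4, and in every library their levels kept the order C1qa, C1qb, C1qc. The ratio of C1qb to C1qa UMIs lay between 0.776 and 0.872, and that of C1qc to C1qa between 0.693 and 0.755. The ratio of C1qb to Csf1r was 1.36, 1.14, 1.55 and 0.985 in MF1, MF2, HF1 and HF2, and that of C1qc to Csf1r 1.17, 1.06, 1.4 and 0.88, so that in HF2 both subunits lay below Csf1r. The libraries with replicate number 1 were the higher of each diet for all 3. Levels of different genes depended on the scale. Per kilobase of exon, C1qa was at 3044.2 CPM, C1qb at 2365.3, C1qc at 1194.4 and P2ry12 at 852, and the libraries of C1qc and P2ry12 overlapped. Per kilobase of the whole gene span they were at 1096.6, 426, 707 and 46.6 CPM. A UMI counts a molecule once whatever its length, so neither scale makes the genes strictly comparable.

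C3, the central component on which the cascade acts, was not detected in MG nuclei. It had 0 UMIs in each of the 4 libraries among 1270239 UMIs of MG nuclei, which allows a level of up to 2.36 CPM over the class (3 counts) and of up to 5.48 to 16.2 CPM in a single library. This limit and the intervals given here cover counting error only. In all kept nuclei C3 had 3 UMIs, 2 of them in astrocyte-like (AST) nuclei and 1 in a cluster of mixed identity. It was under the count filter in every class tested for diet.

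Among the receptors, Csf1r (chr18:61100598-61132149, plus strand) stood at 2483.3, 1945.9, 1781.6 and 2001.1 CPM in MG nuclei of MF1, MF2, HF1 and HF2. P2ry12 (chr3:59216272-59262871, minus) stood at 2346.3, 1870.4, 2467.5 and 2001.1 CPM. Cx3cr1 (chr9:119901616-120069879, minus) stood at 1443.6, 1245.1, 1115.1 and 1252.9 CPM. The diets overlapped for all 3 genes, and MF1 was the highest library for Csf1r and Cx3cr1 and HF1 for P2ry12. Trem2 (chr17:48346401-48354147, plus) stood at 1021.5, 765, 940 and 670 CPM. Tmem119 (chr5:113793729-113800516, minus) stood at 671, 507, 406 and 409 CPM. It was the only member whose diets did not overlap, which held for 25.9% of the 5554 genes tested in MG. Itgam (chr7:128062640-128118491, plus) stood at 495, 307, 335 and 435 CPM. The spans are those of GENCODE M21. Itgam and Tmem119 were thus the lowest detected members in CPM. Itgb2, the partner of Itgam, is taken up with the other complement genes.

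In all, 9 members were higher in every MG library than in any library of the other 8 named classes. These classes were AST, oligodendrocyte progenitor (OPC), oligodendrocyte (ODC), inhibitory and excitatory neuron (INH, EXC), vascular (VASC), Cajal-Retzius (CR) and cycling (CYC) nuclei. The same held for 19.7% of the 5554 genes tested in MG. The exception among the members was C3. Left out of this comparison were 2715 kept nuclei (23.6%) in clusters without a name, some of them nearest to the EXC markers. So were 939 (8.15%) in clusters called mixed. The mean MG level was 67.6 times that of the next class for C1qa, 89 times for C1qb, 92.2 times for C1qc, 81.8 times for Csf1r, 58.9 times for Cx3cr1, 86.4 times for Trem2 and 85 times for Itgam. It was 33.8 times for P2ry12 and 29.2 times for Tmem119, the latter over VASC with only 8 UMIs of Tmem119 (3 UMIs of Itgam), so that the folds of Tmem119 and Itgam over the next class are loose. The next class was OPC for C1qb, C1qc, Csf1r and Trem2, CYC for C1qa and P2ry12, VASC for Tmem119 and Itgam, and CR for Cx3cr1. CYC, VASC and CR held 89, 137 and 137 nuclei, and in these small classes the libraries ranged widely, C1qa from 0 to 100 CPM in CYC. Beyond the first place, most neighbours in the order overlapped between libraries.

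**Figure D1:**
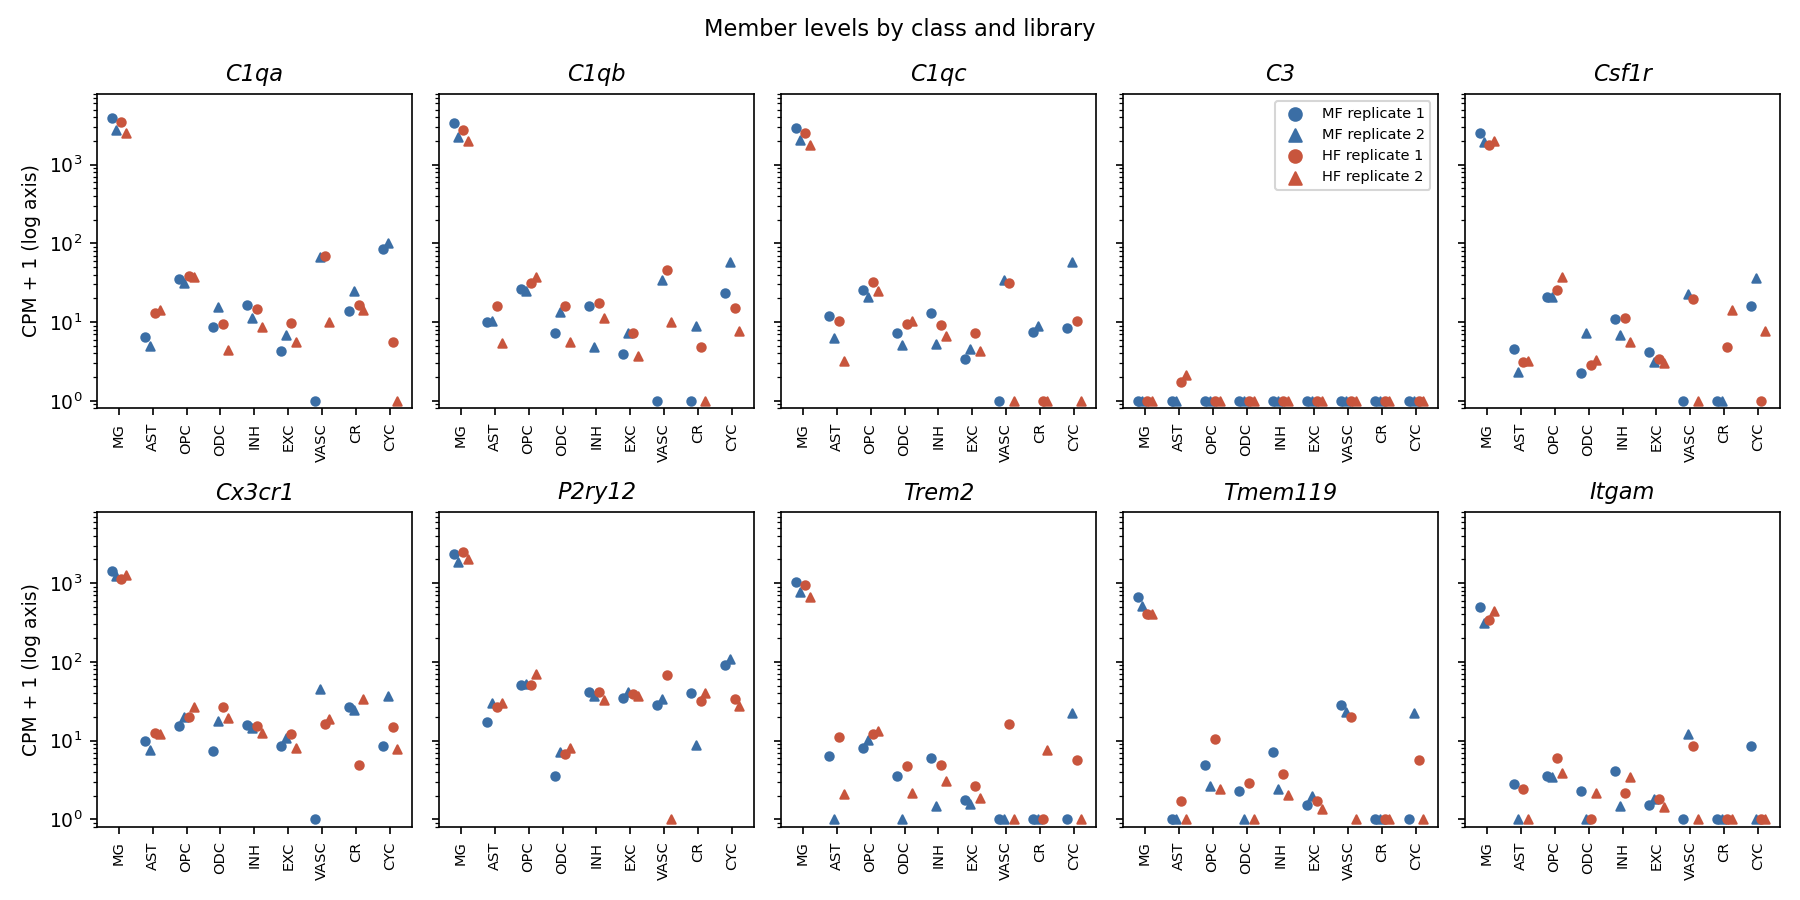
Level of each of the 10 genes (CPM + 1, log axis) in the 9 named classes, with 1 point per library (blue MF, red HF, circle replicate 1, triangle replicate 2). MG points lie far above the others for every gene but C3, and P2ry12 is the highest of the 10 genes in EXC, INH, OPC and AST.

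The members were also common in single nuclei. After thinning each nucleus to 1000 UMIs, 661 MG nuclei remained (19 were shallower), and they held 6.29 members on average. C1qa was found in 89.6% of them, P2ry12 in 86.8%, Csf1r in 85.6%, Cx3cr1 in 71.4%, Trem2 in 56.1%, Tmem119 in 35.4% and Itgam in 32.4%. Of these nuclei, 98.5% held 3 or more members. In thinned EXC nuclei C1qa was found in 0.455%, Csf1r in 0.293% and P2ry12 in 4.33%, and in AST nuclei in 0.709%, 0.158% and 2.36%. Without thinning, C1qa was found in 90.6 to 98.4% of MG nuclei per library and in 3.46 to 8.75% of EXC nuclei, at median depths of 1762 and 9922.5 UMIs.

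Outside MG the members did not keep the proportions they had within it. Of the 20570 member UMIs in MG, C1qa made up 20.8%, Csf1r 13.3%, P2ry12 13.9% (95% exact binomial interval 13.4 to 14.3%) and Cx3cr1 8.03% (7.66 to 8.41%). Of the 2281 member UMIs in EXC, C1qa made up 8.86%, Csf1r 3.81%, P2ry12 56.9% (54.8 to 58.9%) and Cx3cr1 13.9% (12.5 to 15.3%). P2ry12 thus took the larger part of the members' counts in excitatory neurons, and of its UMIs in kept nuclei MG held 40.1%, against 66.5% for C1qa and 69% for Csf1r. ODC differed from the neurons. There Cx3cr1 made up 32.4% of 173 member UMIs (25.5 to 39.9%) and P2ry12 9.83% (5.83 to 15.3%). In the clusters of mixed identity C1qa made up 19.2% and P2ry12 18% of 7067 UMIs. Most of these came from 2 clusters, and the mixed clusters were not alike: in one of 175 nuclei C1qa had 10 and P2ry12 84 UMIs, and in one of 160 nuclei 11 and 67.

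**Figure D2:**
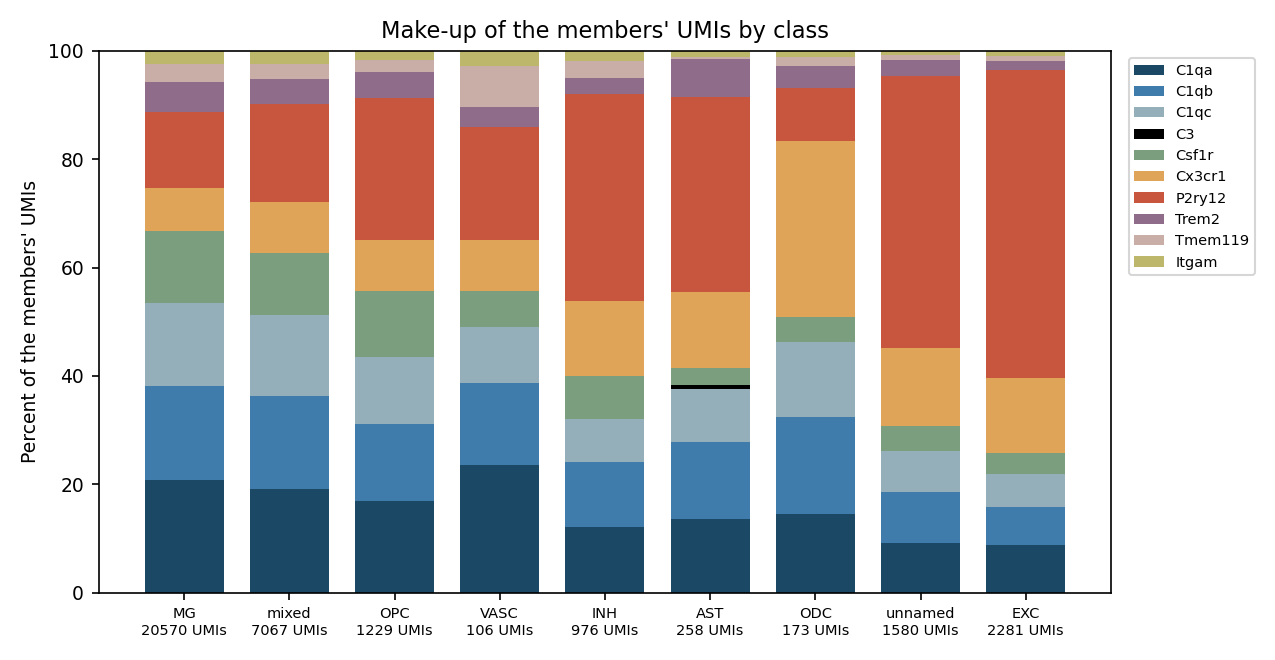
Share (percent) of each gene among the UMIs of all 10 genes, in MG and in 8 other groups of nuclei, as named under the bars. P2ry12 (red) grows from 13.9% in MG to 56.9% in EXC, and Cx3cr1 (orange) reaches 32.4% in ODC.

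In EXC nuclei, P2ry12 stood at 33.4, 40.1, 38.2 and 35.3 CPM in MF1, MF2, HF1 and HF2, a narrow range, while Csf1r stood at 3.22, 2.07, 2.43 and 2 CPM. P2ry12 lies within Med12l, a gene of the Mediator complex transcribed from the other strand, which also encloses P2ry13 and P2ry14. Whether the authors' counting used strand was not given in the sources used here. Med12l itself stood at 296 to 426 CPM in MG, at 238 to 284 CPM in EXC and at 38 to 70.7 CPM in ODC, where P2ry12 was also at its lowest (2.54 to 6.94 CPM). P2ry14 stood at 52.5 to 65 CPM in EXC and 0 to 6.5 CPM in MG. P2ry13 had the reverse pattern, 170 to 403 CPM in MG and 0.215 to 0.827 CPM in EXC. Among the 3 EXC clusters, those led by Trpc6, by Gm32647 and by 4921539H07Rik, P2ry12 was at 51.3, 32 and 19.4 CPM, Med12l at 342, 216 and 156 CPM, and P2ry14 at 85.1, 44.9 and 33.3 CPM. Csf1r stood at 2.85, 2.34 and 1.97 CPM in the same order. Over 17 clusters of at least 50 nuclei outside MG and the mixed ones, Pearson's r of P2ry12 was 0.50 with Med12l, 0.49 with P2ry14, 0.65 with P2ry13 and 0.70 with C1qa. That of Csf1r was -0.09 with Med12l, -0.13 with P2ry14, 0.64 with P2ry13 and 0.85 with C1qa. These points share libraries and differ in depth, so the values are descriptions only. The part of reads from Med12l in the P2ry12 counts was not tested.

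**Figure D3:**
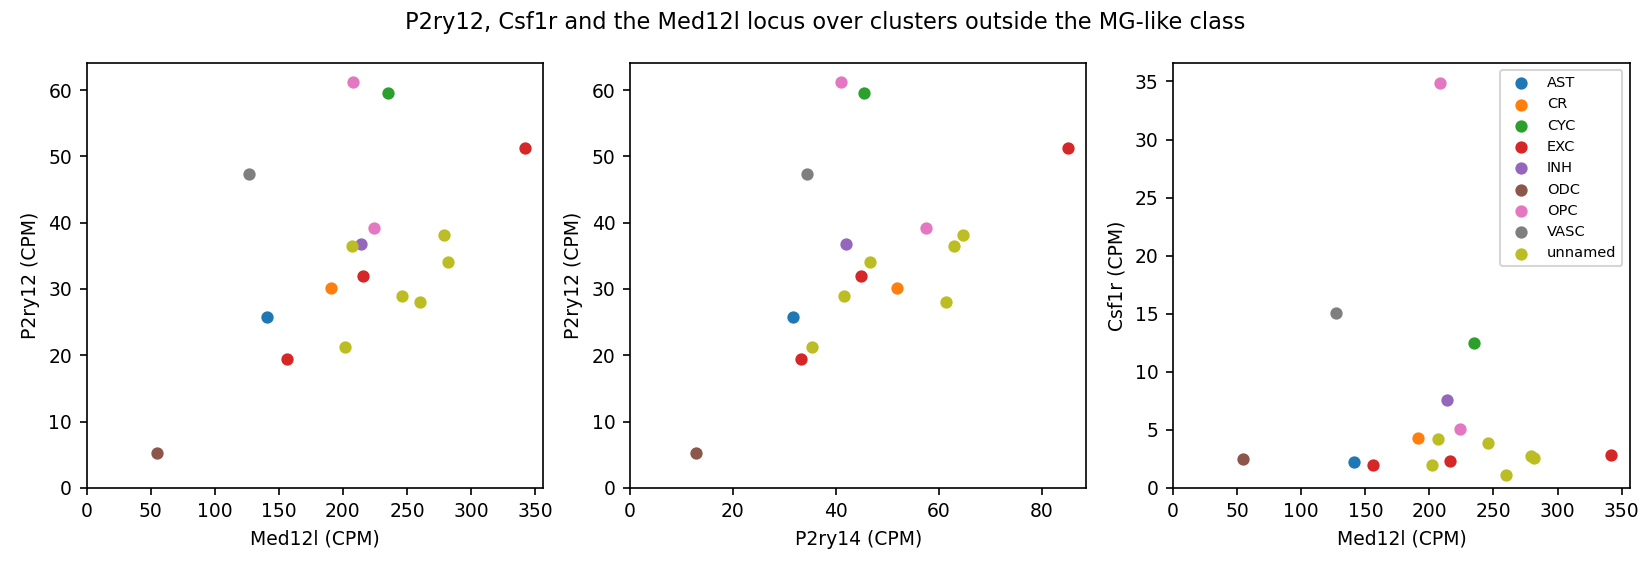
Clusters of at least 50 nuclei outside MG (points, coloured by class, mixed ones left out), with P2ry12 against Med12l (left), P2ry12 against P2ry14 (middle) and Csf1r against Med12l (right), all in CPM. Of these, ODC lies lowest in P2ry12 and Med12l, the EXC cluster led by Trpc6 lies furthest to the right, while Csf1r stays at 5.1 CPM or below in most clusters along the Med12l axis.

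Cx3cr1 also shares its annotated span with other genes, because its longest transcript reaches over Wdr48, Gorasp1, Ttc21a, Csrnp1 and Xirp1. Of these, Wdr48, on the other strand, was the most abundant, at 22.3 to 30.6 CPM in EXC and 29.1 to 46.9 CPM in ODC. Gorasp1, on the strand of Cx3cr1, stood at 3.43 to 3.86 CPM in EXC and 3.78 to 4.63 CPM in ODC. Cx3cr1 stood at 7.09 to 11.1 CPM in EXC and at 6.34 to 25.5 CPM in ODC. In ODC it came from 56 UMIs, more than the 25 of C1qa. The part of reads from the neighbours was not tested here either.

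OPC nuclei fell into 2 clusters that differed in the members. The cluster led by 9630013A20Rik, Enpp6 and Bcas1 (491 nuclei) held C1qa at 46.6, Csf1r at 34.9 and P2ry12 at 61.3 CPM. The cluster led by Lhfpl3, Pdgfra and Cspg4 (577 nuclei) held them at 10.7, 5.1 and 39.2 CPM. Median depth was 5833 UMIs in the first and 3213 in the second, and the median doublet score was 0.0295 and 0.00326. When nuclei were clustered with the RNA filters only, 236 nuclei led by Enpp6 and 9630013A20Rik formed a mixed cluster (median score 0.105). Of 1065 thinned OPC nuclei, 20 (1.88%) held 3 or more members, against none of 1269 AST or 3074 EXC nuclei. The clusters of mixed identity, whose median doublet score was above 0.05, held 20.5% of the member UMIs in kept nuclei. Most of that lay in a cluster of 164 nuclei led by Mrc1 and F13a1, genes of border macrophages, with a median of 10625 UMIs and C1qa at 499 CPM, and in one of 33 nuclei led by Abhd15 and Cd33 with C1qa at 1036.8 CPM. How far doublets took part in the values of the OPC and the mixed clusters was not tested.

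Open chromatin at the start sites was highest in MG, as the RNA was. Peaks were called by the authors in each library, and 154783 regions held a peak in all 4. Such a region covered the RefSeq start of 7 members. For P2ry12 a peak over the start was present in MF1 and HF1, and for Itgam in MF1 and MF2 (63 and 26 counts in MG). A library without a peak has no count there, so the Itgam region could not be compared between diets. C3 had none within 1 kb. Levels here are CPM of the counts in shared regions. The C1qb region (chr4:136885817-136886782), which contains the printed window, stood at 105, 119, 124 and 143 in MG nuclei of MF1, MF2, HF1 and HF2, and at 0.289 to 1.2 in EXC and 0 to 0.553 in AST. The C1qc region (chr4:136892527-136893323) stood at 99.3, 89.1, 107 and 107 in MG and at 0.326 to 1.32 in EXC. C1qa (chr4:136898347-136899226) stood at 79.5, 85.4, 81.8 and 76.5 in MG and at 0.707 to 1.41 in EXC. The order C1qa, C1qb, C1qc of the RNA was not that of the regions, where C1qb was the highest in mean.

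Cx3cr1 (chr9:120067960-120068836) stood at 68, 90.6, 92.2 and 74.5 in MG and at 0.405 to 0.743 in EXC. Csf1r (chr18:61105390-61106312) stood at 66.8, 70.5, 70.9 and 68.6 in MG, and at 5.94 to 7.29 in EXC. Trem2 (chr17:48345968-48346854) stood at 41.8, 26, 36.9 and 40.2 in MG and at 0.116 to 0.801 in EXC. Tmem119 (chr5:113799927-113800855) stood at 47.8, 50.5, 61.7 and 54.1 in MG and at 1.41 to 3.07 in EXC. It was also open in VASC nuclei, at 23, 29.1, 19.2 and 6.34, below every MG library. VASC was also the class with the second highest Tmem119 RNA, 17.1 CPM in mean from 8 UMIs. Regions of the shared set within 10 kb of a member were compared with the 6 other classes used. All MG libraries lay above every library of these classes in 33.3% of regions for C3 (1 of 3), Cx3cr1 (8 of 24) and Itgam (2 of 6). The share rose to 100% for C1qc (4 of 4) and Tmem119 (3 of 3), against 4.2% of all shared regions. The windows of the C1q genes overlap, so that some regions count for more than a single gene.

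P2ry12 also had its highest level over the start in MG, but with ODC nearer to MG than at the other starts. Its region (chr3:59262432-59263286) stood at 19.4 and 17.9 in MG nuclei of MF1 and HF1, the libraries with a peak, and at 12.7 and 9.39 in ODC, where P2ry12 RNA was at its lowest. In EXC it stood at 0.49 and 0.636. The neighbouring region 589 bases upstream (chr3:59263574-59264521) had peaks in all 4 libraries and stood at 35.9, 24.5, 31.7 and 29.7 in MG, 0.231 to 0.858 in EXC, 0 to 2.12 in ODC and 0 in AST.

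**Figure D4:**
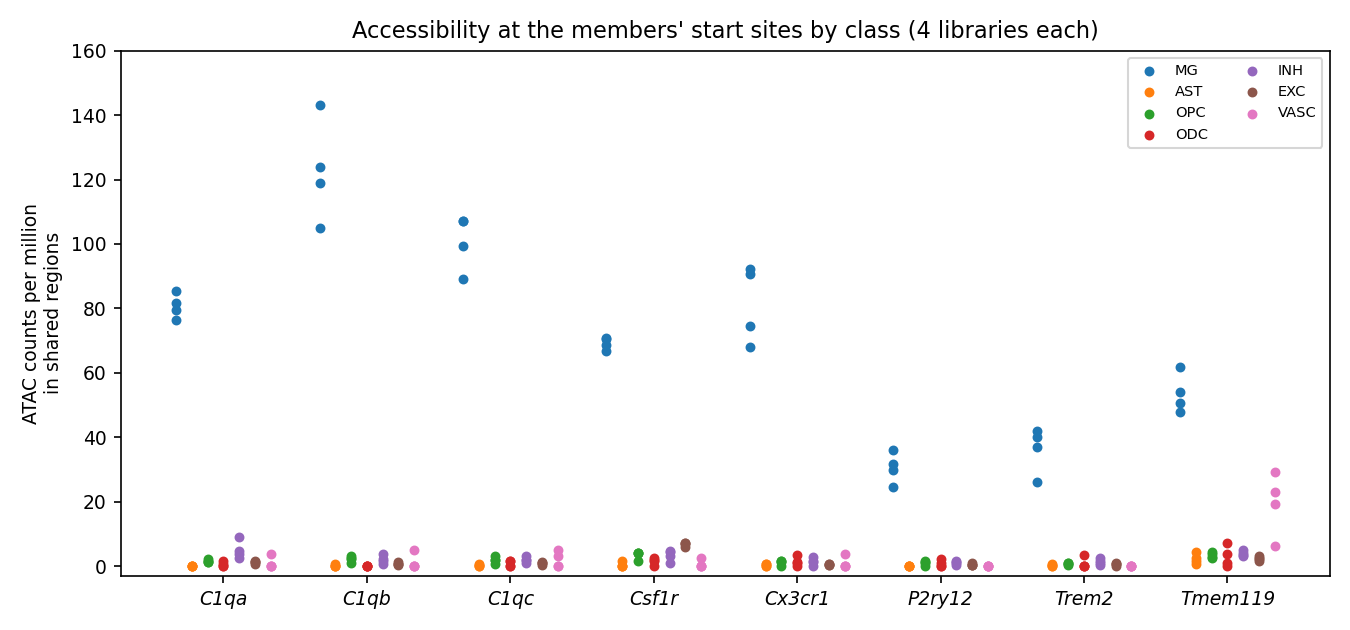
ATAC level (CPM of the counts in shared regions) at the region over the start of 7 members and, for P2ry12, the region 589 bases upstream, with 1 point per library for each of 7 classes. MG lies above all other classes for every gene, and VASC stands out among the others at Tmem119.

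No member was called between the diets. In MG nuclei, library sums were compared by edgeR's quasi-likelihood test, and a gene was called at a false discovery rate under 0.05 and at least 1.2-fold. None of 5554 genes was called (0%), while 134 had an unadjusted p under 0.05, and DESeq2 also called 0. Without the low-count filter 28 genes were called, no member among them. Of the members, 9 passed the count filter. The log2 ratio of HF to MF was -0.14 (SE 0.303) for C1qa, -0.24 (0.309) for C1qb, -0.22 (0.303) for C1qc, -0.23 (0.282) for Csf1r and -0.19 (0.274) for Cx3cr1. It was 0.09 (0.286) for P2ry12, -0.15 (0.292) for Trem2, -0.54 (0.282) for Tmem119 and -0.10 (0.301) for Itgam. The edgeR adjusted p was 1 for all 9, and Tmem119 had the smallest unadjusted p (0.0719). The median of the 9 was -0.19, against -0.01 over all genes tested. Only Tmem119 had diets that did not overlap, 1 of 10 members, and 25.9% of the genes tested did so. Standard errors near 0.3 leave room for differences in either direction, so the members were not shown to be equal between diets. Several directions rested on MF1, and without it C1qa, C1qb, C1qc, Trem2 and Itgam had log2 ratios of 0.12, 0.10, 0.06, 0.08 and 0.33. Without HF2, C1qa and Trem2 were both at 0.06, without HF1 Itgam was at 0.06 and P2ry12 at -0.10, and without MF2 P2ry12 was at -0.08. Tmem119 stayed below 0, at -0.31 without MF1 and -0.73 without MF2, and Csf1r and Cx3cr1 were at -0.03 and -0.07 without MF1.

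**Figure D5:**
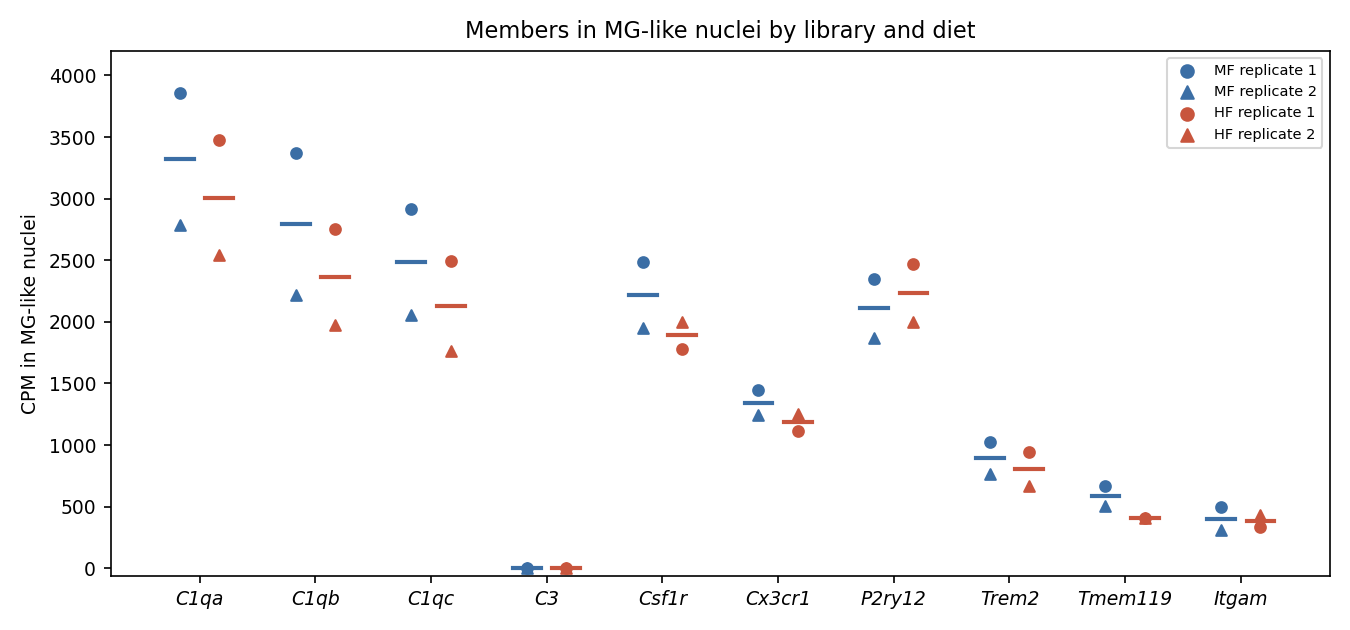
CPM of the 10 genes in MG nuclei, with 1 point per library (circle replicate 1, triangle replicate 2) and a bar at the mean of each diet (blue MF, red HF). The diets overlap for all genes but Tmem119, whose HF points (406 and 409) lie below its MF points (671 and 507), and C3 is at 0 in all libraries. Of the 5554 genes tested in MG, 25.9% had diets that did not overlap.

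Over all kept nuclei every tested member was lower in HF, with a median log2 ratio of -0.57 against 0.01 over all genes, and again none was called (0% of 18373 genes, edgeR, with 199 at an unadjusted p under 0.05 and 0 called by DESeq2). Of all genes, 21 were called with the replicate number as a block and 18 without the low-count filter. Tmem119 stood at 18.3, 7.64, 7.63 and 5.17 CPM in MF1, MF2, HF1 and HF2 (log2 ratio -0.95, SE 0.33), and Csf1r at 67.3, 30.1, 30.8 and 28.1 CPM (-0.65, SE 0.273). For both genes MF1 was the library apart, and MF2 lay close to the HF libraries. The share of MG nuclei moved with this, at 8.83, 4.71, 4.98 and 5.01% of kept nuclei. The mean share differed by -1.78 percentage points, HF minus MF (exact two-sided permutation test, p = 1), and 2 libraries against 2 cannot give a p below 0.333. Without MF1 the share was 0.28 points higher in HF. The filters left out 23.7% of member UMIs in MF1, against 46.7, 40.7 and 39.4% in MF2, HF1 and HF2. Barcodes with 5 or more members made up 10.9, 6.71, 7.17 and 7.18% of kept nuclei in MF1, MF2, HF1 and HF2. Among the barcodes left out they made up 14.6, 17.7, 20.6 and 19.4%, with MF1 the lowest. With RNA filters only the MG share was 8.68, 4.32, 4.95 and 4.91%. How far the filters set MF1 apart was not tested. In sums over all nuclei, fewer microglia and less RNA per microglial nucleus cannot be told apart. In EXC nuclei 6 members were tested and in AST nuclei 2, with none called (0% of 14830 and 0% of 9131 genes, edgeR, with 177 and 248 at an unadjusted p under 0.05, and 0 called by DESeq2 in either). Of all genes, 11 and 1 were called there with the replicate block, and 8 and 9 without the low-count filter. C1qa in AST had a log2 ratio of 1.47 (SE 0.657, unadjusted p = 0.0371, edgeR adjusted p = 1), from 3, 3, 17 and 12 UMIs in MF1, MF2, HF1 and HF2. C1qb and C1qc were under the count filter in AST, with 5, 7, 21 and 4 UMIs (8.99, 9.22, 15.1 and 4.47 CPM) and 6, 4, 13 and 2 UMIs (10.8, 5.27, 9.33 and 2.23 CPM), and their diets overlapped.

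The number of members found in a thinned MG nucleus was 6.68, 6.1, 6.1 and 5.96 in MF1, MF2, HF1 and HF2. MF1 was again the highest, and the other 3 lay together. The difference of the means, HF minus MF, was -0.358 (exact two-sided permutation test, p = 0.333, the smallest the design allows). At 2000 UMIs per nucleus the difference was 0.167, in the other direction, with 157, 15, 32 and 19 nuclei left in MF1, MF2, HF1 and HF2. At 1000 UMIs it was -0.0702 without MF1 and -0.646 without MF2. In ATAC, 26105 regions were tested in MG, and 2 (0.00766%) were called. None of the 50 tested regions within 10 kb of a member was among them. An unadjusted p under 0.05 (edgeR) was found for 1 of the 50 and for 1090 of all 26105. At the starts the log2 ratios of HF to MF were -0.04 (SE 0.193) for C1qa, 0.27 (0.175) for C1qb, 0.18 (0.18) for C1qc, 0.10 (0.202) for Cx3cr1, 0.03 (0.204) for Csf1r, 0.15 (0.28) for Trem2 and 0.25 (0.228) for Tmem119. Thus Tmem119 had a ratio below 0 in RNA and above 0 in chromatin, neither of them called. The 2 called regions were named after their values were seen. They were chr1:64600484-64601730 in Creb1, with 47, 22, 0 and 1 counts in MF1, MF2, HF1 and HF2, and chr1:92741932-92743482, with 51, 27, 3 and 2 counts, 88163 bases from Gpc1. Neither call was firm, since 0 regions were called by DESeq2. When regions with a peak in at least 2 libraries were tested, 0 were called as well. A library without a peak counts as 0 there, so that set cannot judge the 2 calls.

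Other genes of the complement system were few in these nuclei. Of 35 further complement genes, 7 passed the count filter in MG, and none was called between the diets (5 lower in HF, median log2 ratio -0.30). Calr, whose product can bind C1q, stood at 387 CPM in MG, and at 105 to 241 CPM in the other 6 classes looked at (AST, ODC, OPC, INH, EXC and VASC). Cd47, a signal against engulfment, stood at 157 CPM in MG and 148 CPM in EXC. In MG its libraries were at 201, 183, 120 and 122 CPM (log2 ratio -0.67, SE 0.291, edgeR adjusted p = 1). Cr1l, a regulator of C3 convertases, stood at 130 CPM in MG. The receptors of the C3 and C5 fragments, C3ar1 and C5ar1, were at 77.4 and 29.1 CPM in MG, and Itgb2 was at 81.2 CPM.

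Of 7 genes listed here under complement control in neurons, 2 passed the filter in MG and 6 in EXC, with none called. The list holds relatives of such genes, and a role in complement was not tested for any of them. Csmd1 stood at 5217.9 CPM in EXC and 4631 in OPC, and at 40.2, 243, 58.5 and 74 CPM in MG of MF1, MF2, HF1 and HF2, with MF2 apart. Csmd3, its relative, stood at 2013.7, 2242.3, 2132.7 and 3001.7 CPM in MG, and at 1407.6 CPM in EXC, 2224.2 in OPC and 55.1 in AST. Csmd2 was at 529 CPM in OPC, 322 in ODC, 280 in EXC and 5.16 in MG, and Sez6l at 244 CPM in OPC, 231 in EXC and 11.5 in MG. Sez6l2 was at 98.8 CPM in ODC and 24 in MG, Sez6 at 42.3 CPM in INH and 4.36 in MG, and Srpx2 was not detected in MG.

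Ligands and partners of the receptors were looked at in the same 7 classes, without CR and CYC. Cx3cl1, the ligand of Cx3cr1, stood at 60.7 to 86.8 CPM in EXC and at 17.3 CPM in MG. Csf1 and Il34, the ligands of Csf1r, were highest among these in ODC (44.3 CPM) and VASC (110 CPM), and Il34 stood at 23.9 CPM in INH. Tyrobp, the adaptor of Trem2, stood at 1134.8, 749, 829 and 626 CPM in MG and at 3.18 CPM in EXC. Apoe, a lipid carrier bound by Trem2, stood at 7779.2 CPM in AST and 802 CPM in MG. Of the 14 genes of this list, 10 passed the filter in MG and none was called (4 lower, median log2 ratio 0.04). Tgfbr1, a receptor of the TGF-beta signal that keeps the microglial state, stood at 2622.6 CPM in MG, and Entpd1, which breaks down the nucleotides that P2ry12 senses, at 749 CPM.

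Homeostatic and activated microglial genes were compared between the diets in the same way. All 20 homeostatic genes were tested in MG, and 10 were lower and 10 not lower in HF (median log2 ratio -0.02), with none called. Mertk stood at 1503.9, 1757.2, 1427.2 and 1944.6 CPM, and Selplg at 1252.2 CPM in mean. Of 20 genes of activated microglia, 11 were tested, and none was called (4 lower, median 0.07). Ctsd, B2m and Ctsb, among the most abundant of this list, stood at 1982.2, 952 and 601 CPM in MG. Clec7a was not found by that symbol in the matrices, and the other genes of the list were too low to be tested. Lpl stood at 14.8 CPM, Igf1 at 4.98, Cst7 at 3.81, Axl at 3, Itgax at 2.81, Spp1 at 0.914 and Gpnmb at 0.

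The genes whose levels were most like those of each member were sought over the 9 named classes in 4 libraries, 36 points that share libraries, among 5041 genes. On log2(CPM + 1), Pearson's r was 0.944 between C1qa and Arhgap45, 0.952 between C1qb and Tbxas1, 0.951 between C1qc and Ly86, and 0.955 between Csf1r and Arhgap45. It was 0.959 between Trem2 and Fgd2, 0.949 between Tmem119 and F11r, and 0.982 between Itgam and P2ry6. It was lower for Cx3cr1 with Cd37 (0.917) and for P2ry12 with Selplg (0.899). These values rest on the contrast of MG with all other classes and are descriptions.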

How the data were processed

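Per the labels and the study's methods, the authors sequenced 4 multiome libraries (4 GEX and 4 ATAC samples), processed them with Cell Ranger ARC 2.0.1 on mm10, and deposited counts per nucleus of genes and of peaks called in each library separately. The deposited counts were used as they stood. Nuclei with 500 to 7000 genes, under 2% mitochondrial counts and 1000 to 70000 ATAC counts were kept. Doublets were scored with Scrublet in scanpy 1.11.5, whose own threshold marked 0 to 0.222% of nuclei, so clusters with a median score above 0.05 were called mixed instead. Nuclei were clustered with the 10 genes left out and named from markers. Counts were summed per library and class and tested with edgeR 4.0.16 (TMM, quasi-likelihood, Benjamini-Hochberg adjustment); the test was first run on simulated data. DESeq2 1.42.0, other filters, the replicate block and leaving out each library were alternatives. Total UMIs were 39223075 to 47460174 per library. The named genes were the 10 members, up to 4 of the most abundant of each list and the 3 genes most like each member; further genes were named where they overlap a member or complete a pathway, after their values were seen. The members and lists were chosen with earlier results of these data known. Some genes that this rule names are not reported here.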

Additional observations from a re-analysis of the deposited data

Results flagged for a closer look

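Counts of the members also lay in barcodes that the comparisons of the report did not use. The alternative with RNA filters only took in those that failed the ATAC filter alone. Of all 53594 UMIs of the 10 genes, 35.8% (19184) lay in the 2779 barcodes outside the filters. The share was lowest in MF1 (23.7%) and was 46.7% in MF2, with 40.7% and 39.4% in HF1 and HF2. Of these barcodes, 507 (18.2%) held 5 or more members, against 925 (8.03%) of the kept nuclei. Among the 507, 180 had over 7000 genes, 236 had 2% or more mitochondrial counts, and 89 failed the ATAC filter alone. Over all 2779 barcodes C3 had 4 UMIs. What these barcodes were was not tested.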

How the results depend on the processing

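Of 108 values of members under an alternative in MG, none was called, 98 kept the direction and 10 reversed it, each by leaving out a library. Over these omissions the log2 ratios ran from -0.41 to 0.12 for C1qa, -0.53 to 0.10 for C1qb, -0.52 to 0.06 for C1qc, -0.10 to 0.27 for P2ry12, -0.45 to 0.08 for Trem2, -0.38 to 0.33 for Itgam, -0.73 to -0.31 for Tmem119, -0.40 to -0.03 for Csf1r and -0.29 to -0.07 for Cx3cr1. Leaving out 1 library moved the genes called from 0 to 4 to 31 in MG, 0 to 110 in all nuclei (110 without MF2), 1 to 12 in EXC and 1 to 7 in AST, and the regions called from 2 to 6 to 36. In MG 31, 22, 4 and 27 genes and 11, 36, 7 and 6 regions were called without MF1, MF2, HF1 and HF2. A lone library was then assumed to vary like the other diet. Without the low-count filter 28, 18, 8 and 9 genes were called in MG, all nuclei, EXC and AST. In MG, leaving out doublets gave 4 and using RNA filters only gave 7. Testing regions with a peak in at least 2 libraries gave 0 regions, with counts of 0 wherever a library had no peak, and DESeq2 gave 0. The share of MG nuclei differed by -3.84 to 0.28 points between diets when 1 library was left out, and members per nucleus by -0.646 to -0.0702, or by 0.167 with all libraries thinned to 2000 UMIs. Libraries with the same number did not deviate together in MG (r = 0.005 over 5554 genes) and correlated at 0.203 over all nuclei. No label ties a number to a litter, batch or day, and 2 pairs are too few to decide from the data, so the numbers were not taken as pairs. With the replicate block 0 genes were called in MG, 21 in all nuclei, 11 in EXC and 1 in AST, and 4 regions. The cause of these shifts was not tested. Depth limits C3, and 2 libraries per diet limit every test.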
